A study of Homo sapiens with 18 samples.

Results

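The genes described here encode the SEC61 translocon and its nearest helpers, and were taken by symbol from the count table: SEC61A1, SEC61B and SEC61G of the channel, SEC62 and SEC63, the 4 subunits of the translocon-associated protein (TRAP) complex SSR1, SSR2, SSR3 and SSR4, and TRAM1. These 10 genes were found among 57736 genes in the table, and all 10 passed the filter on low counts, which left 17317 genes to test. mRNA was measured by sequencing of 3′ ends in A1847, a human high-grade serous ovarian cancer line that expresses CARM1. The 6 groups were cells labelled wild type for CARM1 and XBP1 (control), CARM1 knockout cells and XBP1 knockdown cells, each left with vehicle or given tunicamycin (5 μg/ml, 8 h), and each group held 3 replicates, 18 libraries in all. The knockout was made with a lentiviral CRISPR vector and the knockdown with a short hairpin RNA. Whether the knockout cells were 1 clone or a pool was not stated in the sources used here. The study's methods name a scramble control hairpin, and the labels do not say whether these control cells carried it. CARM1 is an arginine methyltransferase that coactivates transcription, and XBP1 encodes a transcription factor of the unfolded protein response that becomes active after IRE1α splices its mRNA.

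Most proteins that are secreted or sit in membranes enter the endoplasmic reticulum (ER) while they are being made. The ribosome docks on SEC61, a channel of an α subunit that forms the pore (SEC61A1) and the small subunits β (SEC61B) and γ (SEC61G). SEC63 carries a J domain into the ER lumen, where it recruits the chaperone BiP, and with SEC62 serves proteins that cross after synthesis or have weak signals. The TRAP subunits α to δ (SSR1 to SSR4) sit beside the channel and help some signal sequences open it, and TRAM1 is a membrane protein that nascent chains meet as they leave it. Tunicamycin blocks N-linked glycosylation, so that misfolded proteins gather in the ER and the unfolded protein response sets in, which raises the capacity for folding and import.

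Promoter windows of 250 bases before to 50 bases after annotated start sites in RefSeq (GRCh38.p14) were used for 9 of the 10 genes, in 13 windows. No window was used for TRAM1, so it was not searched. They were searched on both strands for letters known from promoters of the unfolded protein response. The core GACGTG, which forms part of the sequence bound by XBP1 and ATF6, was in the windows of 7 of 9 genes, against 9.34% of 27305 genes with RefSeq windows. It was in 9 of 13 windows, against 7.81% of 35116. These shares cover genes whether or not they were expressed here, and base composition was not matched. The longer TGACGTGG, which contains that core, was in windows of 3 of 9 genes (SEC62, SSR3 and SSR4), against 0.927% of genes. In SSR3 the matches to either sequence lay only in windows of start sites further downstream. The SSR3 window furthest upstream (chr3:156555068-156555367) held none, and which start site was used in these cells was not tested. The ER stress response element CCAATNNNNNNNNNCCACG and its variant ATTGGNCCACG were in none of the 13 windows, against 0.0916% and 0.0696% of genes. The stretches with a match are printed because all of these genes were higher with tunicamycin in control cells, so that the letters can be read beside their values. They run 5′ to 3′ in the sense of the gene, with TGACGTGG or else GACGTG, or its reverse complement, in capitals.
SEC61A1, chr3:128052417-128052462, + strand: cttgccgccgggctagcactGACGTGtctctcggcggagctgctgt
SSR3, chr3:156554874-156554919, - strand: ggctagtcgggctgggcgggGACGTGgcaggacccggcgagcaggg
SSR3, chr3:156554139-156554186, - strand: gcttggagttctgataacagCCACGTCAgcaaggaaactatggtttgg
SEC62, chr3:169966585-169966630, + strand: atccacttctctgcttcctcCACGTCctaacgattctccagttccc
SEC62, chr3:169966770-169966817, + strand: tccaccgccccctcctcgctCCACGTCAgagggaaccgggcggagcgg
SSR1, chr6:7313260-7313305, - strand: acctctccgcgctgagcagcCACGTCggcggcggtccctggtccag
SEC63, chr6:107958254-107958299, - strand: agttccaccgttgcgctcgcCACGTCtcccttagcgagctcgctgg
SEC61G, chr7:54759293-54759338, - strand: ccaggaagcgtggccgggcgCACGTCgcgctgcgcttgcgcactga
SSR4, chrX:153794328-153794373, + strand: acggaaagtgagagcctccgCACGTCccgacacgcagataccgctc
SSR4, chrX:153794519-153794566, + strand: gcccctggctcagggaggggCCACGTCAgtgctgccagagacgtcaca
The core was not found in the windows of SEC61B and SSR2. A match is a description of the letters and was not tested as a binding site.

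The library totals ranged from 9367462 to 13917212 counts with a median of 12899157, and the 10 genes had 418 (SSR4) to 17450 (SSR3) counts per library. Levels are given in CPM, counts scaled to a common library size with TMM factors. With vehicle, XBP1 was at 45.9 ± 4.50 CPM in control and 25.4 ± 1.25 in knockdown cells (SD, n = 3), and at 149.8 ± 3.02 and 71.6 ± 2.35 with tunicamycin. CARM1 mRNA was at 162 ± 2.69 CPM in control and 74.2 ± 3.11 in knockout cells with vehicle, so the transcript was lower but still detected in the knockout. In knockdown cells CARM1 was at 190 ± 2.49 CPM with vehicle. With tunicamycin it was at 174 ± 7.83 CPM in knockdown and 135 ± 3.89 in control cells. The CARM1 knockout libraries stood apart as a whole. Their log2 CPM correlated with those of the other genotypes across genes at 0.73 to 0.775 (72 pairs of libraries), whereas control and knockdown libraries correlated at 0.961 to 0.987 and replicates at 0.986 to 0.989. Of 9 ovarian epithelial markers, PAX8 and KRT7 were at 61.2 ± 4.18 and 393 to 433 CPM in vehicle-treated knockout cells and stayed under 1 CPM in control and knockdown cells, and MUC16 was at 0 in all libraries. KRT19 went the other way, with 0 counts in all knockout libraries and 0.745 ± 0.457 CPM with vehicle and 2.94 ± 0.536 with tunicamycin in control cells. The summed epithelial markers were 2250 to 2770 CPM in the knockout libraries, 311 to 489 in control and 131 to 215 in knockdown libraries. Most of the knockout sum was KRT18, KRT8 and KRT7, with means of 1482, 734 and 412 CPM with vehicle. Of the 9, 6 reached 1 CPM in a knockout library, 4 in a control and 3 in a knockdown library. Of 7 markers of other cell types, 6 were in the table, and their sum was 190.0 to 500.0 CPM in knockout, 9.34 to 19.4 in control and 5.71 to 11.4 in knockdown libraries. Nearly all of the knockout sum was COL1A1, at 458 to 494 CPM in knockout and 13.1 to 17.3 CPM in control libraries with vehicle. Of the 6, 2 reached 1 CPM in a knockout, 2 in a control and 1 in a knockdown library. With vehicle, CD68 was also higher in knockout than control cells (6.36 against 0.427 CPM). DCN (0.028 against 0.901 CPM) and PTPRC (0.076 against 0.557 CPM) were lower. In each comparison of the knockout with control cells, the loss of CARM1 and whatever else sets these libraries apart cannot be told apart. No knockout library entered the fits of control with knockdown cells, but the filter on low counts and the CPM scaling used all 18 libraries. The genes tested thus included some with few or no counts in control and knockdown cells, such as PAX8 (0 to 2 counts per library). Shares over all genes tested include such genes.

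Tunicamycin raised all 10 genes in control cells. Their median log2 fold change was 1.34, against 0 over all genes, and every gene had 3 tunicamycin libraries above the 3 vehicle libraries, as 25.1% of all genes tested did. In bulk samples such as these, more cells that express a gene and more of its mRNA per cell cannot be told apart. Over all genes tested, 22.0% were called higher and 19.9% lower, at a false discovery rate of 5%. The smallest rise was that of SEC61G and the largest that of SSR4. Within all genes tested, the log2 fold changes of the 10 genes lay between the 77.9th and the 96.6th percentile. The summed level of the 10 genes was 1616 ± 34.0 CPM with vehicle and 3633 ± 52.7 with tunicamycin (SD, n = 3).

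**Figure D1:**
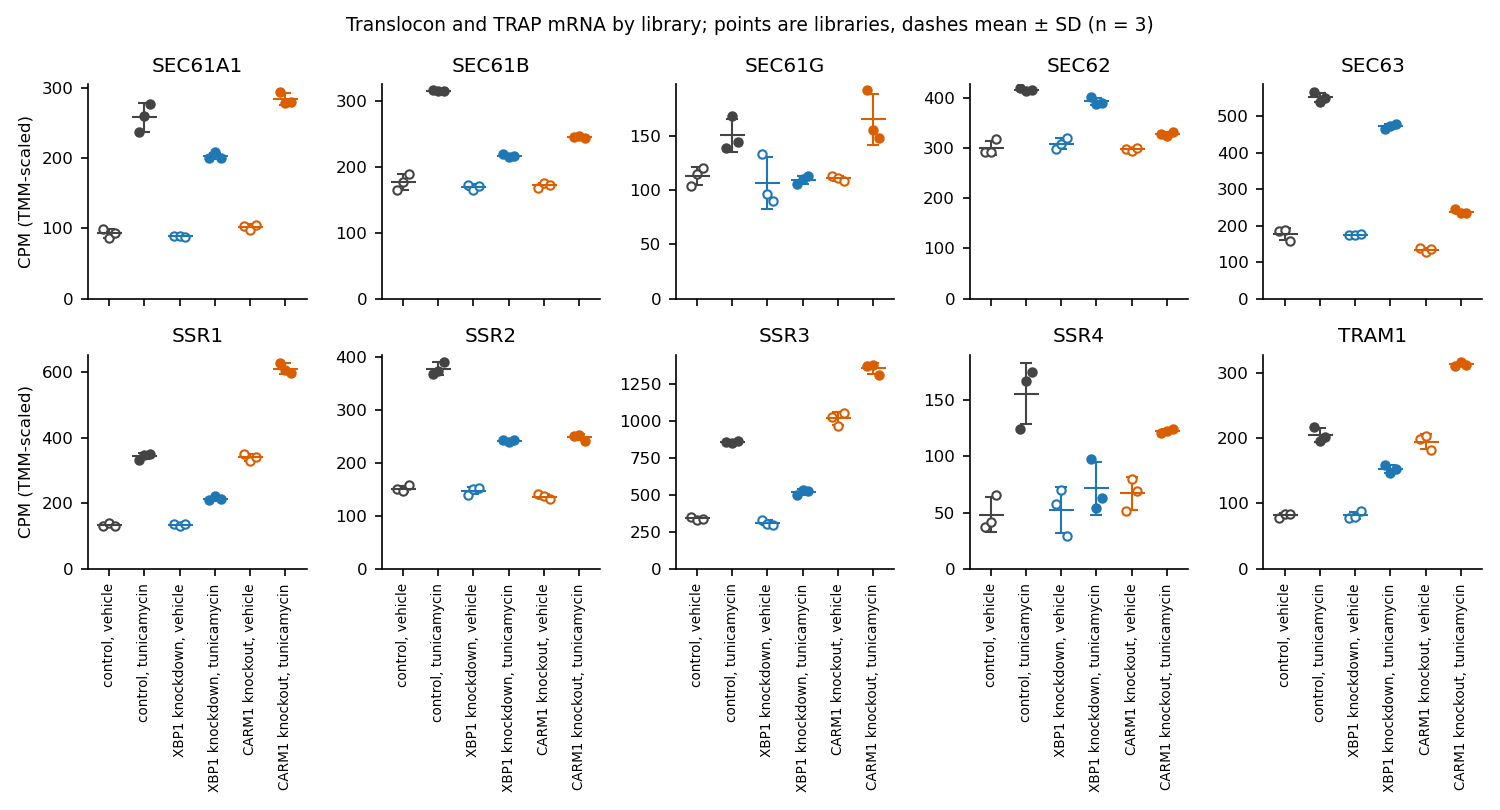
CPM of each gene (y axis, from 0) in the 3 libraries of each of the 6 groups (x axis), with open points for vehicle, filled points for tunicamycin and bars for mean ± SD. All 10 genes were higher with tunicamycin in control cells, and SSR1, SSR3 and TRAM1 were already higher in vehicle-treated CARM1 knockout cells than in vehicle-treated control cells.

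SEC61A1 (ENSG00000058262, chr3:127770484-127790548 of GRCh37, + strand), the pore-forming subunit, was at 99.3, 86.3 and 92.8 CPM in the vehicle-treated control libraries and at 237, 259 and 278 CPM with tunicamycin. The groups did not overlap, and the log2 fold change was 1.49 (SE 0.070, edgeR adjusted p = 5.97e-11). The 3′ part of SEC61A1 overlaps RUVBL1 on the other strand, which had 899 to 2164 counts per library, its other end overlaps MGLL (159 to 3072 counts), and whether counting used strand was not stated. SEC61B (chr9:101984346-101992897, + strand) went from 165, 177 and 189 CPM to 318, 315 and 316 CPM, a log2 fold change of 0.84 (SE 0.057, edgeR adjusted p = 5.01e-09). The tunicamycin libraries of SEC61B lay within 3 CPM of each other. SEC61G (chr7:54819943-54827667, − strand) went from 104, 115 and 121 CPM to 139, 168 and 144 CPM, with a log2 fold change of 0.42 (SE 0.076, edgeR adjusted p = 0.000251). As fold changes, these were 2.81-fold, 1.8-fold and 1.34-fold for α, β and γ, and the differences between genes were not tested.

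SEC63 (chr6:108188960-108279412, − strand), the J-domain partner of BiP, had 186, 189 and 157 CPM with vehicle and 566, 539 and 551 CPM with tunicamycin. Its log2 fold change of 1.65 (SE 0.066, edgeR adjusted p = 7.53e-12) was among the largest of the 10 genes. SEC62 (chr3:169684423-169716161, + strand), which binds SEC63, had 291, 292 and 317 CPM and 419.7, 413 and 415 CPM, a smaller log2 fold change of 0.48 (SE 0.053, edgeR adjusted p = 1.34e-06). Both passed the test, and neither overlapped between treatments.

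All 4 TRAP subunits rose. SSR1 (chr6:7268539-7347679, − strand), the α subunit, went from 131, 138 and 131 CPM to 333, 348 and 351 CPM. SSR2 (chr1:155978839-155990742, − strand), the β subunit, went from 149.8, 146 and 158 CPM to 367, 374 and 391 CPM, and SSR3 (chr3:156257342-156272938, − strand), the γ subunit, from 351, 332 and 340.0 CPM to 862, 850.3 and 863 CPM. The log2 fold changes of these subunits were 1.38 (SE 0.054, edgeR adjusted p = 5.53e-12) for SSR1, 1.33 (SE 0.055, edgeR adjusted p = 1.1e-11) for SSR2 and 1.34 (SE 0.049, edgeR adjusted p = 2.28e-12) for SSR3, within 0.1 of each other. SSR4 (chrX:153058971-153063954, + strand), the δ subunit, had 37.3, 41.7 and 65.9 CPM with vehicle and 125, 168 and 175 CPM with tunicamycin. Its replicates were the most scattered of the 10 genes relative to their mean, and the log2 fold change was 1.70 (SE 0.16, edgeR adjusted p = 2.65e-07). SSR4 overlaps IDH3G on the other strand, which had 249 to 526 counts per library. TRAM1 (chr8:71485453-71520651, − strand) went from 77.5, 84.0 and 83.1 CPM to 216, 196 and 202 CPM, with a log2 fold change of 1.34 (SE 0.061, edgeR adjusted p = 3.49e-11), close to those of SSR1, SSR2 and SSR3. Of the genes with the letters TGACGTGG in a window, SEC62, SSR3 and SSR4 rose by 0.48, 1.34 and 1.70 on the log2 scale, and of those without GACGTG, SEC61B and SSR2 rose by 0.84 and 1.33.

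Whether XBP1 knockdown changes these levels was asked first with vehicle. None of the 10 genes was called in edgeR between knockdown and control cells with vehicle, where 2.07% of all genes tested were called higher and 3.03% lower. One gene, SSR3, had an unadjusted p under 0.05, and DESeq2 called 0 of the 10. The log2 fold changes ranged from -0.14 for SSR3 to 0.098 for SSR4, and 9 of the 10 genes overlapped between the groups. Over all genes tested, 23.6% did not overlap, in either direction. The knockdown libraries had 329.8, 304 and 299 CPM of SSR3, all below the control libraries, with edgeR adjusted p = 0.157. SEC61G was at 133, 96.1 and 89.7 CPM in these libraries, and without replicate 1 it was called lower, with a log2 fold change of -0.29 and edgeR adjusted p = 0.0463.

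With tunicamycin, 9 of the 10 genes were called lower in knockdown than in control cells and 0 higher, where 8.55% of all genes tested were called lower and 6.99% higher. The median log2 fold change was -0.50 against 0.00 over all genes, and in each of the 10 genes all 3 knockdown libraries lay below all 3 control libraries, as they did in 15.8% of all genes tested. SEC62 was not called. The summed level of the 10 genes was 2598 ± 4.94 CPM (SD, n = 3) in knockdown cells with tunicamycin, and 1574 ± 31.5 CPM with vehicle.

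The TRAP subunits were the furthest below control. SSR1 was at 209, 221 and 213 CPM in the knockdown libraries with tunicamycin, a log2 fold change against control of -0.68 (SE 0.046, edgeR adjusted p = 7.78e-08). SSR2 was at 242, 239 and 244 CPM, with a log2 fold change of -0.64 (SE 0.045, edgeR adjusted p = 1.16e-07), and SSR3 at 499, 537 and 530.1 CPM, with -0.72 (SE 0.041, edgeR adjusted p = 1.72e-08). These genes stood at 0.623, 0.641 and 0.609 times their control level, in the order SSR1, SSR2 and SSR3. SSR4 was at 98.1, 53.6 and 63.0 CPM, and its log2 fold change of -1.11 (SE 0.16, edgeR adjusted p = 0.000219) came with an error several times that of the other subunits. TRAM1 was at 159, 147 and 153 CPM, a log2 fold change of -0.42 (SE 0.054, edgeR adjusted p = 7.16e-05).

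In the channel, SEC61B was at 219.7, 215 and 216 CPM (log2 fold change -0.54, SE 0.044, edgeR adjusted p = 5.1e-07) and SEC61G at 106, 109.7 and 112 CPM (-0.46, SE 0.067, edgeR adjusted p = 0.000219). SEC61A1 was at 200.4, 209 and 200.0 CPM, with a log2 fold change of -0.35 (SE 0.057, edgeR adjusted p = 0.000596). All channel subunits were thus lower than in control cells with tunicamycin. SEC63 differed less, with 466, 474 and 479 CPM and a log2 fold change of -0.22 (SE 0.041, edgeR adjusted p = 0.00155). SEC62 had 401, 388 and 390.5 CPM, and its log2 fold change of -0.079 did not pass the test (SE 0.042, edgeR adjusted p = 0.241).

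Next, the response within knockdown cells was examined. Tunicamycin raised 8 of the 10 genes in knockdown cells, where 19.2% of all genes tested were called higher and 19.0% lower, and the median log2 fold change was 0.69. SEC63 (1.43) and SEC61A1 (1.18) had the largest log2 fold changes, followed by TRAM1 (0.90), SSR3 (0.74), SSR2 (0.71) and SSR1 (0.67). SEC61G had a log2 fold change of 0.032 (SE 0.11, edgeR adjusted p = 0.864) and SSR4 one of 0.46 (SE 0.24, edgeR adjusted p = 0.154), and neither passed. SEC61G was called higher without vehicle replicate 1 of the knockdown (0.226, edgeR adjusted p = 0.00754), and SSR4 without vehicle replicate 2 (0.731, edgeR adjusted p = 0.0265) and with no filter on low counts (0.456, edgeR adjusted p = 4.94e-10). The SSR4 libraries overlapped between treatments, at 57.2, 70.0 and 29.4 CPM with vehicle and 98.1, 53.6 and 63.0 CPM with tunicamycin. Its estimate with no filter was near that with the filter, and why the adjusted p was so much smaller was not tested.

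The difference between the 2 responses was tested as the interaction of genotype and tunicamycin, in a fit of the 4 groups. It was called lower for 5 of the 10 genes and higher for 0, where 1.67% of all genes tested were called lower and 0.364% higher. These were SSR1 (-0.70, SE 0.067, edgeR adjusted p = 5.15e-06), SSR2 (-0.62, SE 0.069, edgeR adjusted p = 3.63e-05), SSR3 (-0.60, SE 0.066, edgeR adjusted p = 3.63e-05), SEC61B (-0.49, SE 0.070, edgeR adjusted p = 0.000472) and TRAM1 (-0.43, SE 0.084, edgeR adjusted p = 0.00587), in log2 units. The interaction of SSR1 means that its rise of 2.6-fold in control cells was 1.59-fold in knockdown cells. SSR4 had the lowest estimate, -1.23 (SE 0.35, edgeR adjusted p = 0.0784), and did not pass. It passed without vehicle replicate 3 of the control, without vehicle replicate 3 or tunicamycin replicate 1 of the knockdown, and with no filter on low counts. SEC61A1 (-0.30, SE 0.087, edgeR adjusted p = 0.0875) passed under DESeq2 (adjusted p = 0.0339) and without tunicamycin replicate 1 of the control (edgeR adjusted p = 0.0367). SEC61G (-0.38), SEC63 (-0.21) and SEC62 (-0.14) did not pass, and SEC61G passed with no filter (-0.347, edgeR adjusted p = 0.00613). All 10 estimates were below 0, with a median of -0.46, against 0 over all genes.

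**Figure D2:**
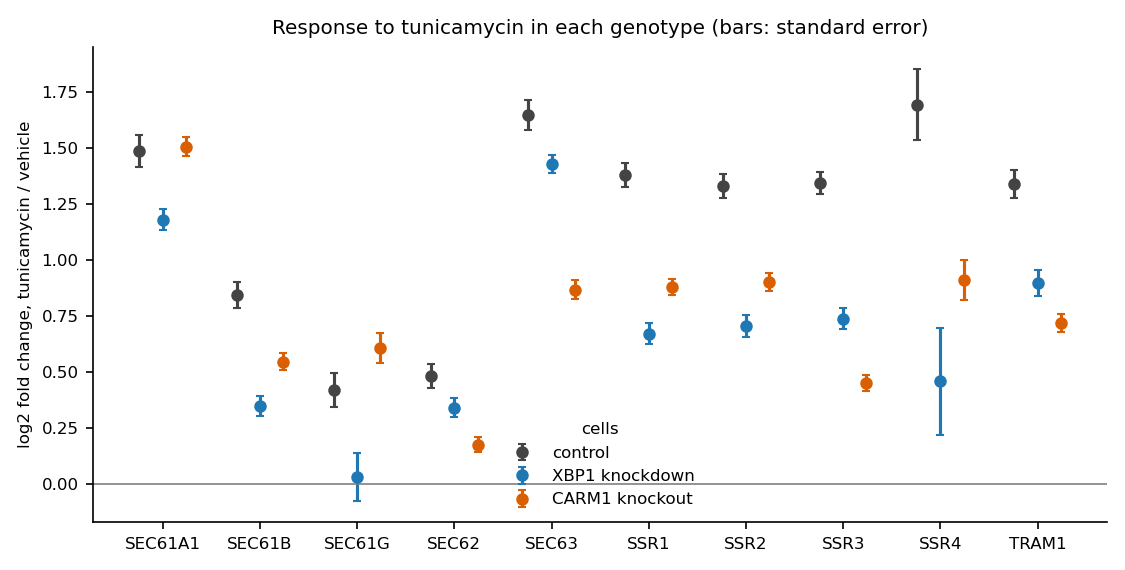
log2 fold change of tunicamycin against vehicle (y axis) for each gene (x axis) in control, XBP1 knockdown and CARM1 knockout cells, with standard errors as bars (3 libraries against 3). The knockdown points lie below the control points for all 10 genes, and the knockout points lie below them except for SEC61A1 and SEC61G.

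The CARM1 knockout cells held the 10 genes at levels that differed from control in both directions. With vehicle, 4 genes were called higher (SSR1, SSR3, SSR4 and TRAM1) and 2 lower (SEC63 and SSR2), where 37.5% of all genes tested were called higher and 36.9% lower. The count called higher was thus near the share over all genes, and that called lower was below it. With 10 genes, this difference was not tested. The comparisons with this genotype use the same control libraries as those with the knockdown.

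SSR3 was at 1029.7, 970.0 and 1058 CPM in the vehicle-treated knockout libraries, a log2 fold change against control of 1.54 (SE 0.045, edgeR adjusted p = 7.2e-14). These values lay above those of control cells with tunicamycin. SSR1 was at 349, 329 and 341 CPM, with a log2 fold change of 1.31 (SE 0.047, edgeR adjusted p = 8.26e-13), and TRAM1 at 198, 204 and 181 CPM, with 1.21 (SE 0.057, edgeR adjusted p = 2.48e-11). Both overlapped with the control libraries treated with tunicamycin. The other TRAP subunits lay closer to control. SSR2 was at 141, 136 and 131 CPM, a log2 fold change of -0.20 (SE 0.051, edgeR adjusted p = 0.00277). SSR4 was at 51.7, 80.2 and 69.5 CPM, which overlapped with control, and its log2 fold change was 0.42 (SE 0.18, edgeR adjusted p = 0.0434). That call was lost under DESeq2 (adjusted p = 0.176), in the fit of all libraries (edgeR adjusted p = 0.096) and on leaving out vehicle replicate 1 or 2 of the control or vehicle replicate 2 or 3 of the knockout (edgeR adjusted p from 0.123 to 0.253).

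The channel subunits did not pass in vehicle-treated knockout cells. SEC61A1 was at 104, 98.3 and 105 CPM (log2 fold change 0.099), SEC61B at 169, 175 and 173 CPM (-0.087) and SEC61G at 113, 111 and 108 CPM (-0.076). SEC61A1 was called higher in the fit of all libraries (0.144, edgeR adjusted p = 0.0304) and without vehicle replicate 1 of the control (0.164, edgeR adjusted p = 0.0332). SEC63 was lower, at 139, 127 and 135 CPM with a log2 fold change of -0.45 (SE 0.067, edgeR adjusted p = 1.83e-05). SEC62 was at 298, 295 and 299.6 CPM, with a log2 fold change of -0.058 that did not pass.

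The genes around each member were compared with it because the knockout differed from control in so many genes. This comparison was chosen after the values had been seen. Over all genes tested, 37.5% were called higher and 36.9% lower in vehicle-treated knockout cells. The neighbours were widely scattered, with log2 fold changes from -3.4 to 10.48 around SSR3 and from -4.22 to 10.38 around SSR1. Of the 14 other genes tested within 1 Mb of SSR3, 4 were higher and 7 lower in vehicle-treated knockout cells, with a median log2 fold change of -0.45. The 12 around SSR1 had a median of 0.19, with 5 higher and 2 lower, and the 7 around TRAM1 a median of 0.68, with 2 higher and 2 lower. SSR1, SSR3 and TRAM1 lay above the median of their neighbours, at 1.31, 1.54 and 1.21. Around SSR2, 50 of 67 genes were lower and 9 higher, with a median of -0.83, below the -0.20 of SSR2 itself. Around SSR4, 24 of 42 were higher and 6 lower, with a median of 0.45, near the 0.42 of SSR4. Around SEC63, 6 of 11 were lower and 2 higher, with a median of -0.31, against -0.45 for SEC63. Of the channel, SEC61A1 (0.099) had 8 of 15 neighbours higher and 7 lower, with a median of 0.29. SEC61B (-0.087) had 2 of 12 higher and 8 lower, with a median of -0.84, and SEC61G (-0.076) 2 of 4 higher and 0 lower, with a median of 0.28. Around SEC62 (-0.058), 6 of 15 were higher and 2 lower, with a median of 0.12.

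**Figure D3:**
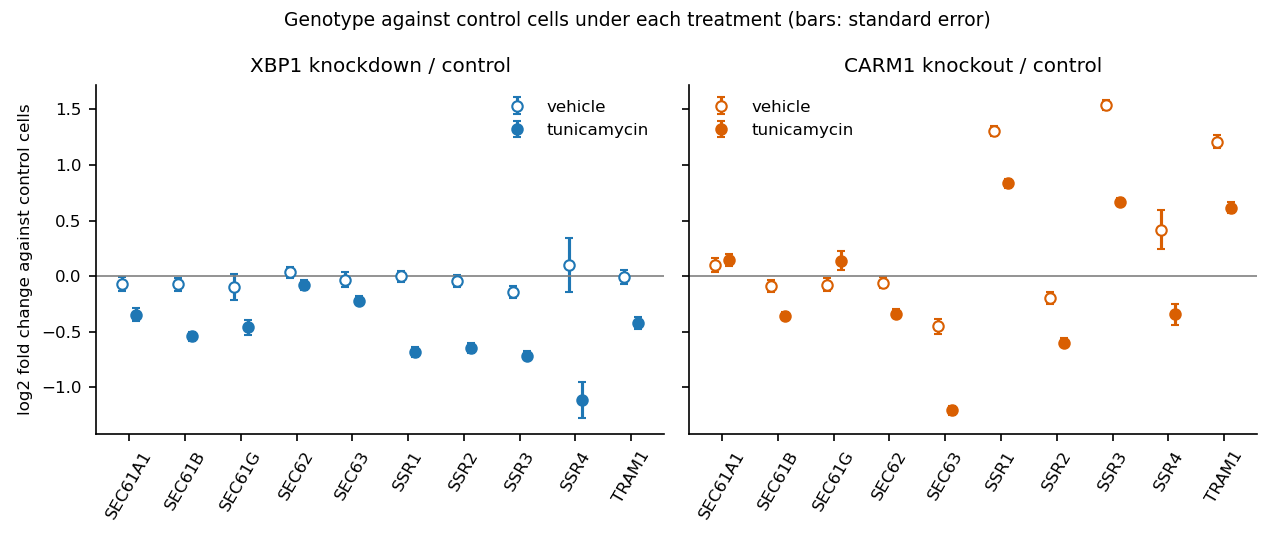
log2 fold change against control cells (y axis) of XBP1 knockdown (left) and CARM1 knockout (right) for each gene (x axis), with open points for vehicle, filled points for tunicamycin and standard errors as bars (3 libraries against 3). The knockdown points lie near 0 with vehicle and below 0 with tunicamycin, whereas SSR1, SSR3 and TRAM1 lie above 0 and SEC63 below 0 under both treatments in the knockout.

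Tunicamycin raised all 10 genes in the knockout cells too, where 20.6% of all genes tested were called higher and 18.8% lower, with a median log2 fold change of 0.79. The largest rise was that of SEC61A1, at 294, 279 and 279 CPM with tunicamycin and a log2 fold change of 1.51 (SE 0.043, edgeR adjusted p = 1.45e-17). The smallest was that of SEC62, at 328, 323 and 332 CPM, with 0.18 (SE 0.034, edgeR adjusted p = 0.000242). In each of the 10 genes the 3 tunicamycin libraries lay above the 3 vehicle libraries of this genotype, against 22.3% of all genes tested.

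By the interaction test, which is on the log2 scale, 8 of the 10 genes rose less than they did in control cells and 0 rose more. The test was called lower for 12.4% of all genes tested and higher for 10.5%. The 1814 higher and 2151 lower calls became 2375 and 1745 with no filter on low counts. SSR3 had the lowest interaction of the 10, -0.91 (SE 0.059, edgeR adjusted p = 7.32e-10). Tunicamycin took it to 1377, 1385 and 1315 CPM, 1.37-fold over vehicle, against 2.54-fold in control cells. SEC63 followed with -0.80 (SE 0.083, edgeR adjusted p = 5.19e-07), at 245, 234 and 236 CPM. TRAM1 (-0.64, SE 0.073, edgeR adjusted p = 1.88e-06) and SSR1 (-0.52, SE 0.061, edgeR adjusted p = 2.64e-06) were at 311, 316 and 312 CPM and 628, 607 and 597 CPM. SSR3, TRAM1 and SSR1 thus rose less, in log2 terms, from a higher starting level, whereas SEC63 rose less from a lower one. SSR2 (-0.45, SE 0.066, edgeR adjusted p = 3.93e-05), SEC62 (-0.33, SE 0.059, edgeR adjusted p = 0.000355) and SEC61B (-0.32, SE 0.066, edgeR adjusted p = 0.00132) had smaller interactions that passed. SSR4 passed as well (-0.80, SE 0.23, edgeR adjusted p = 0.0139), but not under DESeq2 (adjusted p = 0.0775) or in the fit of all libraries (edgeR adjusted p = 0.0854). SSR4 also lost the call without vehicle replicate 1 or 2 of the control, tunicamycin replicate 3 of the control or vehicle replicate 2 of the knockout (edgeR adjusted p from 0.0615 to 0.0656). SEC61A1 had an estimate of -0.00 (SE 0.085) and SEC61G one of 0.17 (SE 0.12), and neither passed.

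Under tunicamycin, knockout cells had 4 genes above control (SEC61A1, SSR1, SSR3 and TRAM1) and 5 below (SEC61B, SEC62, SEC63, SSR2 and SSR4), where 38.4% of all genes tested were called higher and 36.8% lower. Here, too, the count called higher was near the share over all genes, while that called lower was above it, which was not tested. SEC63 stood furthest below, with a log2 fold change of -1.21 (SE 0.041, edgeR adjusted p = 8.5e-13), 0.434 times its control level. SSR2 was at 251, 253 and 241 CPM (-0.60, SE 0.043, edgeR adjusted p = 7.13e-09), and SEC61B at 246, 246 and 244 CPM (-0.36, SE 0.039, edgeR adjusted p = 8.69e-07). SEC62 had a log2 fold change of -0.34 (SE 0.038, edgeR adjusted p = 1.25e-06). The higher genes were SSR1 (0.83, SE 0.041, edgeR adjusted p = 7.36e-11), SSR3 (0.67, SE 0.037, edgeR adjusted p = 2.69e-10) and TRAM1 (0.62, SE 0.046, edgeR adjusted p = 8.98e-09). SEC61A1, at 0.14 (SE 0.055, edgeR adjusted p = 0.0274), lost its call without tunicamycin replicate 1 of the control (0.1, edgeR adjusted p = 0.0771) and without tunicamycin replicate 1 of the knockout (0.119, edgeR adjusted p = 0.123). SSR4 was at 120.4, 123 and 125 CPM, overlapped with control and had -0.34 (SE 0.094, edgeR adjusted p = 0.00412), which was lost in the fit of all libraries (edgeR adjusted p = 0.16). SEC61G was at 192, 155 and 148 CPM and did not pass (0.14, SE 0.087, edgeR adjusted p = 0.16). It was called higher without tunicamycin replicate 2 of the control (0.219, edgeR adjusted p = 0.0252), without tunicamycin replicate 3 of the knockout (0.212, edgeR adjusted p = 0.048) and with no filter (0.155, edgeR adjusted p = 0.0151).

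The order of the 6 group means differed from gene to gene. In SEC63 the control, knockdown and knockout cells with tunicamycin followed each other downwards without overlap, and the vehicle-treated control and knockdown groups overlapped. For SSR2, knockdown and knockout cells with tunicamycin overlapped, both below control with tunicamycin and above all vehicle groups. The order of SSR1 and TRAM1 began with knockout cells with tunicamycin, followed by control cells with tunicamycin and vehicle-treated knockout cells, which overlapped. For SSR3 that pair was in the reverse order and did not overlap. The knockdown cells with tunicamycin came next in all of SSR1, SSR3 and TRAM1, and the vehicle-treated control and knockdown groups were last, overlapping in SSR1 and TRAM1.

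The likeness of the genes' patterns was measured as the Euclidean distance between their 6 group means of log2 CPM, each centred on the gene's own mean, among 9524 tested genes whose log2 CPM averaged 3 or more. For SSR1 the nearest were TMED9 (distance 0.241), a cargo receptor between ER and Golgi, SSR3 (0.332) and TRAM1 (0.35). Thus 2 of its 3 nearest among these 9524 genes were in the same group of 10. The distances include the knockout groups, where SSR1, SSR3 and TRAM1 were all higher than control with vehicle, and the part of this was not tested. TRAM1 was nearest to FTSJ1 (0.216), TMED9 (0.253) and CCDC28A (0.263), and SSR3 to GIHCG (0.215), PUS7L (0.224) and BIRC2 (0.226). SSR2 was nearest to PRRC1 (0.117), UFM1 (0.189), the modifier of the UFMylation pathway, and SIAH2 (0.201). SSR4 had more distant neighbours, GOLGB1 (0.355), GOLT1B (0.411) and B9D1 (0.483). SEC61A1 was nearest to GPT2 (0.188), IBTK (0.28) and OSBP (0.299), SEC61B to MORF4L2 (0.147), ZSWIM8 (0.181) and HDLBP (0.212), and SEC61G to RNF31 (0.178), ANKS3 (0.19) and EXOSC5 (0.194). SEC62, whose levels changed little, was nearest to HSD17B12 (0.074), CCNK (0.075) and SUPT5H (0.076), and SEC63 to MON1B (0.197), SLC31A1 (0.224) and HAX1 (0.246). The pair of members furthest apart was SEC63 and SSR3, at 2.497.

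The genes that work before, beside and after the translocon were counted in lists of 59 genes, all of which were tested. In control cells tunicamycin raised 36 of the 59 and lowered 6, with a median log2 fold change of 0.32, where 22.0% of all genes tested were called higher and 19.9% lower. All 3 genes of the luminal BiP cycle rose, among them HSPA5, which encodes BiP (3.08, SE 0.044, edgeR adjusted p = 6.85e-17), and HYOU1, a nucleotide exchange factor of BiP (2.87, SE 0.057, edgeR adjusted p = 1.74e-15). Of the signal recognition particle (SRP) and its receptor, 6 of 8 rose and 1 fell. Of the signal peptidase, 3 of 5 rose, the largest rise being that of the catalytic subunit SEC11C (1.97, SE 0.065, edgeR adjusted p = 7.27e-13). The oligosaccharyltransferase, which adds the glycans whose precursor tunicamycin blocks, had 9 of 12 higher and OST4 lower (-0.50, SE 0.083, edgeR adjusted p = 0.000104). The ER membrane protein complex had 6 of 10 higher and 2 lower, the tail-anchored insertion route 4 of 7 higher and 1 lower, and the multipass translocon 2 of 6 higher and 1 lower, which was near the shares over all genes. The lower ones included UBL4A of the tail-anchored route (-1.62, SE 0.087, edgeR adjusted p = 2.7e-10) and NCLN of the multipass translocon (-0.78, SE 0.077, edgeR adjusted p = 4.64e-07). Of the ribosome receptors and translocon-associated proteins, 3 of 5 rose.

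**Figure D4:**
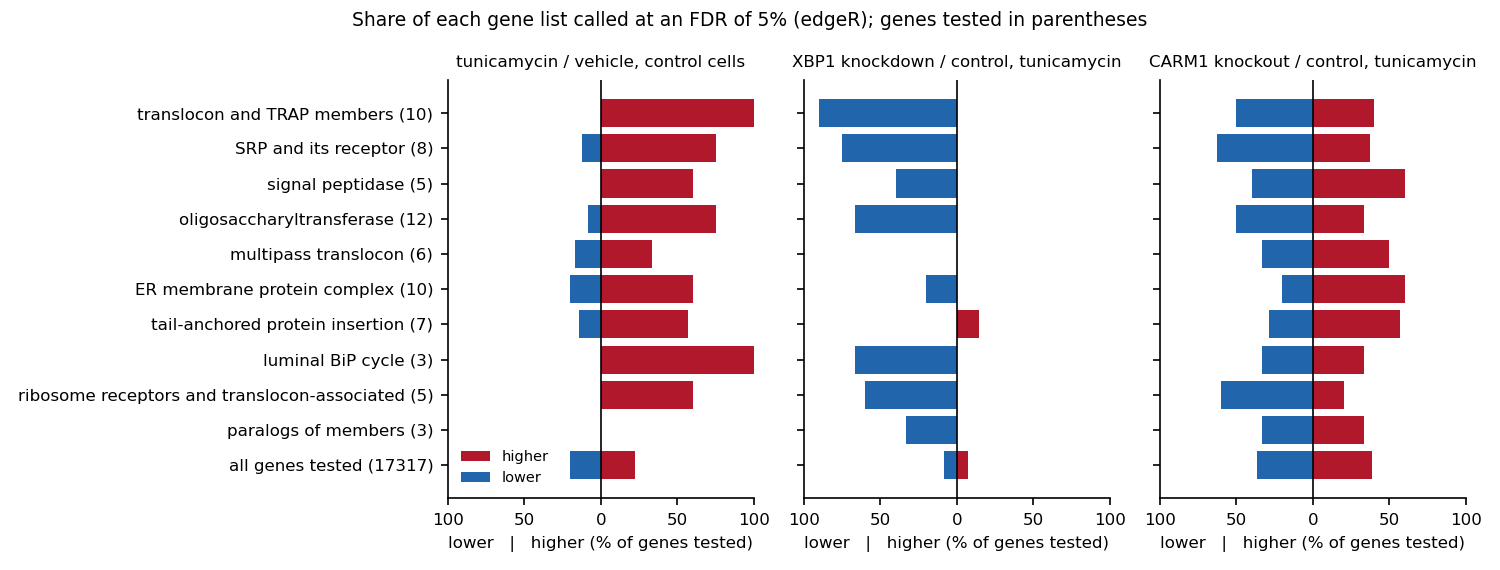
Share of the genes tested in each list that were called lower (blue, to the left) or higher (red, to the right) at a false discovery rate of 5%, in percent, with the number of genes tested in parentheses. All 10 members were higher with tunicamycin in control cells and with tunicamycin 9 of 10 were lower once XBP1 was knocked down, whereas 0 of 6 genes of the multipass translocon were called in that second comparison.

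Under tunicamycin, 24 of the 59 partner genes were lower and 1 higher in knockdown than in control cells, with a median log2 fold change of -0.14, where 8.55% of all genes tested were called lower and 6.99% higher. RRBP1, a ribosome-binding membrane protein, was at 127 ± 5.88 CPM against 258 ± 9.94 in control cells (SD, n = 3; log2 fold change -1.02, SE 0.053, edgeR adjusted p = 6.17e-09). SERP1, a small protein bound to the translocon, was at 343 ± 9.64 against 539.8 ± 11.6 CPM (-0.65, SE 0.044, edgeR adjusted p = 6.65e-08), and SRP19, an SRP subunit, at 164 ± 12.6 against 250.4 ± 13.2 CPM (-0.61, SE 0.060, edgeR adjusted p = 5.19e-06). The lists with the highest shares lower were SRP and its receptor (6 of 8), the oligosaccharyltransferase (8 of 12) and the luminal BiP cycle (2 of 3). UBL4A was the gene called higher (0.39, SE 0.11, edgeR adjusted p = 0.0238). The interaction was called lower for 14 of the 59 and higher for 0, where 1.67% of all genes tested were called lower and 0.364% higher. The lower ones included 6 of 8 of SRP and its receptor, 4 of 12 of the oligosaccharyltransferase, 3 of 5 of the ribosome receptors and translocon-associated proteins and 1 of 5 of the signal peptidase. With vehicle, 5 of 59 were lower and 0 higher, where 3.03% of all genes tested were called lower and 2.07% higher. The 5 genes included EMC10 (-0.68, SE 0.11, edgeR adjusted p = 0.00157), EMC1 (-0.33, SE 0.079, edgeR adjusted p = 0.0237) and HSPA5 (-0.32, SE 0.041, edgeR adjusted p = 0.00024). Within knockdown cells tunicamycin raised 28 and lowered 10 of the 59, where 19.2% of all genes tested were called higher and 19.0% lower.

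Knockout cells with tunicamycin had 26 of the 59 partner genes above control and 24 below, with a median log2 fold change of 0.055, where 38.4% of all genes tested were called higher and 36.8% lower. With vehicle, 27 were above and 21 below, where the shares over all genes were 37.5% and 36.9%. These counts of partner genes were near the shares over all genes. SEC11C was at 53.6 ± 4.72 CPM in the knockout with tunicamycin against 201 ± 7.08 in control cells (-1.91, SE 0.062, edgeR adjusted p = 5.46e-13). UBL4A (1.72, SE 0.084, edgeR adjusted p = 6.69e-11), DAD1 of the oligosaccharyltransferase (1.02, SE 0.051, edgeR adjusted p = 9.5e-11) and EMC6 (0.97, SE 0.041, edgeR adjusted p = 1.06e-11) were the highest against control. DAD1 (1.37, SE 0.063, edgeR adjusted p = 1.78e-11) and EMC3 (1.07, SE 0.063, edgeR adjusted p = 4.04e-10) were also higher with vehicle. SERP2, a paralog of SERP1, had 0 counts in all 6 knockout libraries and 43 to 58 in the control libraries. Tunicamycin raised 30 and lowered 9 of the 59 in knockout cells, where 20.6% of all genes tested were called higher and 18.8% lower. The rises were led by HSPA5 (3.77, SE 0.026, edgeR adjusted p = 2.34e-28), HYOU1 (3.07, SE 0.039, edgeR adjusted p = 7.05e-24) and SERP1 (1.56, SE 0.038, edgeR adjusted p = 8.49e-19), and GET1, a receptor of tail-anchored proteins, was lowered (-0.65, SE 0.10, edgeR adjusted p = 2.58e-05). The interaction was called lower for 23 of the 59 and higher for 7, where 12.4% of all genes tested were called lower and 10.5% higher. The share of the partner genes called higher, 11.9%, was near that over all genes.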

How the data were processed

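3′ mRNA libraries were read as single 75 nt reads. The authors used bowtie2 for alignment to hg19 and RSEM for expected counts per Ensembl gene, which they deposited as unnormalized whole numbers (the sources used here name different RSEM versions). All 18 columns were mapped to groups by the labels. Counts were analysed in R 4.3.3 with edgeR 4.0.16 (filterByExpr over all libraries, minimum count 10; TMM; quasi-likelihood F test; Benjamini-Hochberg adjustment over 17317 genes; calls at 0.05), with limma 3.58.1. Only the libraries of the compared groups entered a fit. The SE of a log2 fold change was taken as its size over the root of F. Log CPM used a prior count of 2. Scripts were tested on simulated data.

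Alternatives were DESeq2 1.42.0, its size factors, no filter, all libraries in 1 fit, a replicate block and leaving out each library. The members and lists were chosen with earlier results of these data known. Named were the members, CARM1, XBP1, per comparison at most 3 partner genes in each direction with the largest changes and no overlap, near copies, and the 3 nearest patterns. Replicate pairs had a chi-square per degree of freedom of 1.84 to 6.89 (18 pairs, genes with at least 20 counts), so errors come from replicates. The labels only number the replicates, and the study describes its experiments in general as biologically independent. P-values weigh a difference between groups against the spread between these libraries.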

Additional observations from a re-analysis of the deposited data

Results flagged for a closer look

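The response of 5 genes to tunicamycin differed between XBP1 knockdown and control cells by the test of the interaction itself (edgeR, in log2 units, knockdown minus control). Over all genes tested, 1.67% were called lower and 0.364% higher. The interaction was -0.49 for SEC61B, -0.70 for SSR1, -0.62 for SSR2, -0.60 for SSR3 and -0.43 for TRAM1, so each rose less in the knockdown.

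Between CARM1 knockout and control cells the response differed for 8 genes by the same test, where 12.4% of all genes tested were called lower and 10.5% higher. The interaction was -0.32 for SEC61B, -0.33 for SEC62, -0.80 for SEC63, -0.52 for SSR1, -0.45 for SSR2, -0.91 for SSR3, -0.80 for SSR4 and -0.64 for TRAM1. The knockout libraries stood apart from the others as described above, and the part of that difference in these values was not tested. The call of SSR4 was lost under DESeq2 (adjusted p = 0.0775), in the fit of all libraries (edgeR adjusted p = 0.0854) and without some single libraries.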

How the results depend on the processing

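Of 1110 values of single genes under the alternatives, 1046 kept their direction and their side of the threshold, 16 lost the call, 17 gained one and 31 turned direction. None of the 31 was called either way, and their smallest adjusted p was 0.319. Calls changed for SEC61A1 (7 values), SEC61G (7) and SSR4 (19) and for no other member. Of 222 counts of members called, 220 stayed within 1.5 times. With no filter on low counts, 1 member (SEC61G, 0.241, adjusted p = 0.0289) was called higher in the knockout interaction, and on leaving out single libraries the members called lower in vehicle-treated knockdown cells numbered 0 to 1. The cause was not tested. Turned values in vehicle-treated knockdown cells were 0.002 for SSR1 and 0 for TRAM1 with no filter, and 0.005 and 0.004 with all libraries in 1 fit. The knockout interaction of SEC61A1 was 0.015 under DESeq2, 0.015 with its size factors and 0.07 with no filter. On leaving out single libraries it ranged from -0.032 to 0.128. The same ranges in vehicle-treated knockdown cells were -0.29 to 0.015 (SEC61G), -0.109 to 0.019 (SEC63), -0.017 to 0.024 (SSR1), -0.175 to 0.396 (SSR4) and -0.059 to 0.032 (TRAM1). SEC61G in the tunicamycin response of the knockdown ranged from -0.077 to 0.226, and SEC62 in the vehicle-treated knockout from -0.063 to 0.005. Under the alternatives the median log2 fold change of all genes ranged from -0.034 to 0.066, and in the main fits from -0.03 to 0.001.

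Over all genes, the 359 higher and 524 lower calls in vehicle-treated knockdown cells became 632 and 746 with no filter and 696 and 724 with all libraries in 1 fit, and ranged from 146 to 580 and 289 to 654 without single libraries. The 63 higher and 290 lower calls of the knockdown interaction became 104 and 361 under DESeq2, 263 and 469 with no filter and 119 and 339 with all libraries. With the replicate block they were 39 and 244. No pairing by replicate number was seen. Deviations of same-numbered libraries correlated at -0.051 to 0.045 over 45 pairs, and those of other libraries at -0.083 to 0.094 over 90 pairs. This cannot show whether same-numbered libraries were handled together, which the labels do not say. The replicate block changed 1 of 90 calls, that of SEC61A1 in knockout cells with tunicamycin (0.147, adjusted p = 0.0548). Leaving out a library also took the knockout interaction over all genes to 2188 higher and 1526 lower (without vehicle replicate 1 of the control), and calls under tunicamycin in the knockdown to 617 to 1055 higher and 906 to 1416 lower. SSR4 had 418 to 2306 counts per library, and whether depth limited its calls was not tested.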

Other observations

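The lists held 3 paralogs of the members. SEC61A2, a paralog of the channel's α subunit, was at 15.8 ± 0.869 CPM with vehicle and 16.3 ± 1.52 with tunicamycin in control cells (SD, n = 3; edgeR adjusted p = 0.77). TRAM2, a paralog of TRAM1, was at 42.2 ± 0.806 and 37.8 ± 2.15 CPM (edgeR adjusted p = 0.132). TRAM1L1 had 5 to 31 counts per library over all groups. In vehicle-treated CARM1 knockout cells TRAM2 was higher than in control cells, at 108 ± 2.33 CPM (1.31, SE 0.057, edgeR adjusted p = 8.06e-12), as TRAM1 was, and SEC61A2 was lower, at 6.97 ± 0.523 CPM (-1.24, SE 0.12, edgeR adjusted p = 1.92e-07). Tunicamycin lowered TRAM2 in the knockout, to 60.1 ± 2.92 CPM (-0.82, SE 0.050, edgeR adjusted p = 1.24e-11), while TRAM1 rose there. In tunicamycin-treated knockdown cells SEC61A2 was lower than in control cells (-0.43, SE 0.12, edgeR adjusted p = 0.0257).

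Pseudogenes named after the members had few counts. SEC63P1 had 0 to 28 and SSR4P1 0 to 24 counts per library, and SSR1P1, SSR1P2, SEC61GP1 and SEC63P2 had at most 1.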
